A study of Homo sapiens with 6 samples.

Results

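The mitochondrial ribosomal proteins were analyzed in RNA-seq libraries of TC71, a human Ewing sarcoma cell line, in which the endocytic recycling protein EHD1 was knocked down. Members were chosen by symbol alone: the letters MRPL (large subunit) or MRPS (small subunit) followed by a number and, where present, a letter from A to C. The rule found 78 of the 60676 genes in the count table, 49 named MRPL and 29 named MRPS. Both groups were TC71 cells carrying a lentiviral, Dox-inducible shRNA construct, and both received Dox at 0.5 µg/ml over 3 days. The control cells expressed a non-targeting shRNA (shNTC+Dox) and the knockdown cells an shRNA against EHD1 (shEHD1+Dox), with 3 libraries each. The lines were antibiotic-selected pools and not single clones, and which EHD1 shRNA was used for these libraries is not given in the sources used here. The labels do not say that the libraries came from separate cultures, so p-values measure the spread between these samples, which may be technical.

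Mitochondria translate the mRNAs of their own genome on a ribosome of their own, the mitoribosome. Its RNAs are transcribed from mitochondrial DNA, whereas all of its proteins are encoded in the nucleus, made in the cytosol and imported, and many have a homolog in the bacterial ribosome while others were added in mitochondria. The small subunit binds the mRNA and reads its codons, and the large subunit forms the peptide bonds and passes the new chains, core subunits of the respiratory chain and the ATP synthase, to the inner membrane.

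The libraries held 22711235 to 30582187 counts. Values are given as CPM, the counts divided by the TMM-scaled library size in units of 1e+06 counts. Differences are log2 fold changes of shEHD1+Dox over shNTC+Dox from edgeR's quasi-likelihood test. Their standard errors (SE) were calculated as the absolute log2 fold change over the square root of the test's F statistic. The test covered 16785 genes, those that reached 10 counts in 3 or more libraries, and a gene was called at an adjusted p (Benjamini-Hochberg over all those genes) under 0.05. EHD1, the target of the shRNA, had 713, 775 and 589 counts in the controls against 215, 175 and 290 after knockdown, and fell by 1.76 ± 0.12 (SE) on the log2 scale (adjusted p = 1.35e-04). Of the 10 Ewing sarcoma markers checked, 9 were above 1 CPM on average, and their summed level was 1586 to 1605 CPM in the controls and 1513 to 1611 CPM in the knockdown, with BCL11B, NPY1R and STEAP1 lower and CD99 higher at the call threshold. Among 6 leukocyte markers only the integrin ITGB2 was above 1 CPM, the defining marker PTPRC had at most 11 counts in a library, and CD3E had 0. Among 6 epithelial markers, EPCAM, CDH1, KRT19 and ESRP1 were too low to be tested, and KRT8 and KRT18 were not called.

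All 78 members were expressed in every library and all passed the filter on low counts. Their counts ran from 227 to 5719 per library, and together they took 0.468% to 0.506% of the counts. To set levels of different genes side by side, CPM were divided by the length of the canonical transcript in kb. On this scale the members ran from 8.08 CPM per kb for MRPS33 to 121 CPM per kb for MRPL12, a ratio of 15.0, with a median of 37.3. The scale depends on the annotated canonical length, which need not be that of the transcript expressed. By CPM in the controls, MRPS33 (33.1 CPM, 4210 bases) was above MRPL53 (12.8 CPM, 496 bases). MRPL12 is the protein of the flexible stalk that recruits translation factors. After it, the highest large-subunit gene was MRPL13 (112 CPM per kb). The highest small-subunit genes were MRPS7 (108 CPM per kb) and MRPS15 (98.3 CPM per kb), and the large-subunit gene MRPL37 (109 CPM per kb) lay above both. The lowest large-subunit genes were MRPL22 (8.81 CPM per kb) and MRPL50 (10.0 CPM per kb), and MRPS18C (9.44 CPM per kb) was next to MRPS33 at the bottom of the small subunit. The median level was 37.6 CPM per kb for MRPL and 37.0 CPM per kb for MRPS genes, so the medians were alike although single members differed widely. The lower quartile was 30.9 CPM per kb for MRPL and 14.1 CPM per kb for MRPS, and the upper quartile 55.0 and 54.5. Replicates were close: the median coefficient of variation of a member was 5.63% in the controls and 5.43% in the knockdown.

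**Figure D1:**
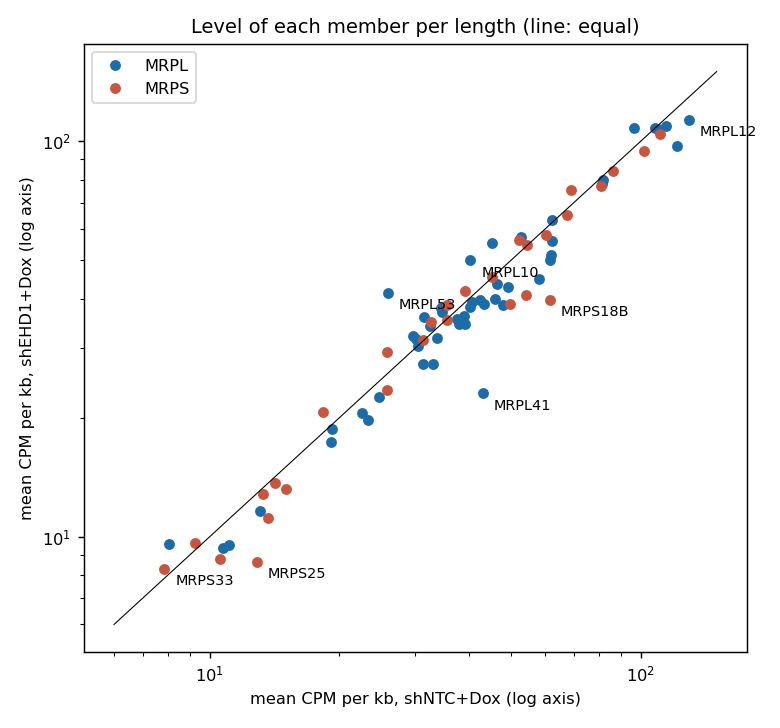
Mean level of each of the 78 members in shNTC+Dox (x axis) and shEHD1+Dox (y axis), in CPM per kb on log axes, with MRPL genes in blue, MRPS genes in red and the line of equal levels. Members range from MRPS33 (8.08 CPM per kb over all libraries) to MRPL12 (121 CPM per kb) and most lie near the line, with MRPL41, MRPS18B and MRPS25 below it.

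Most members differed little between the groups. Of the 78 members, 11 (14.1%) were called, 10 lower and 1 higher in shEHD1+Dox. Over all genes tested, 17.3% were called, 8.75% lower and 8.59% higher, so the share of members called was not above the background, while the 10 lower calls were 12.8% of the members and the single higher call was 1.28%. Among the 8061 genes whose mean level lay in the CPM range of the members, 23.7% were called, 11.66% lower and 12.02% higher. Against these genes, the share of members called lower (12.8%) was similar, and the share called higher (1.28%) was smaller. No member changed by 2-fold or more, by edgeR or by the Wald test of DESeq2, against 2.82% of all genes called at that fold. Of the 8061 genes in the members' CPM range, only 94 were called at that fold. At an unadjusted p under 0.05, 23 members (29.5%) passed, against 32.3% of all genes, and the largest called difference was a fall of 0.90 on the log2 scale. The median log2 fold change was -0.07 over the members and 0.00 over all genes tested, and 68 of the 78 lay within 0.3 of 0 on the log2 scale. So did 10084 of the 16785 genes tested and 5883 of the 8061 in the members' CPM range. By sign alone, 51 members (65.4%) were lower and 27 higher, against 49.9% lower among all genes and among those in the same CPM range. The groups did not overlap for 29 members (37.2%, against 39.3% of all genes and 46.8% of those in the same CPM range). Of the 29, 22 were lower and 7 higher in shEHD1+Dox. Without overlap, 3263 of all 16785 genes were lower and 3340 higher. In the members' CPM range, 1814 of the 8061 genes were lower and 1961 higher. The number of calls depended on single libraries: it was 4 without shEHD1+Dox replicate 1 or without shNTC+Dox replicate 1, 5 without shEHD1+Dox replicate 3 or shNTC+Dox replicate 2, 7 without shEHD1+Dox replicate 2 and 14 without shNTC+Dox replicate 3. MRPL41, MRPS18B and MRPS25 were called in each of these fits, and each of the other 8 calls was lost in 3 to 5 of the 6, with an adjusted p of at most 0.123. In bulk RNA, a lower level in every cell and fewer cells with a high level cannot be told apart.

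**Figure D2:**
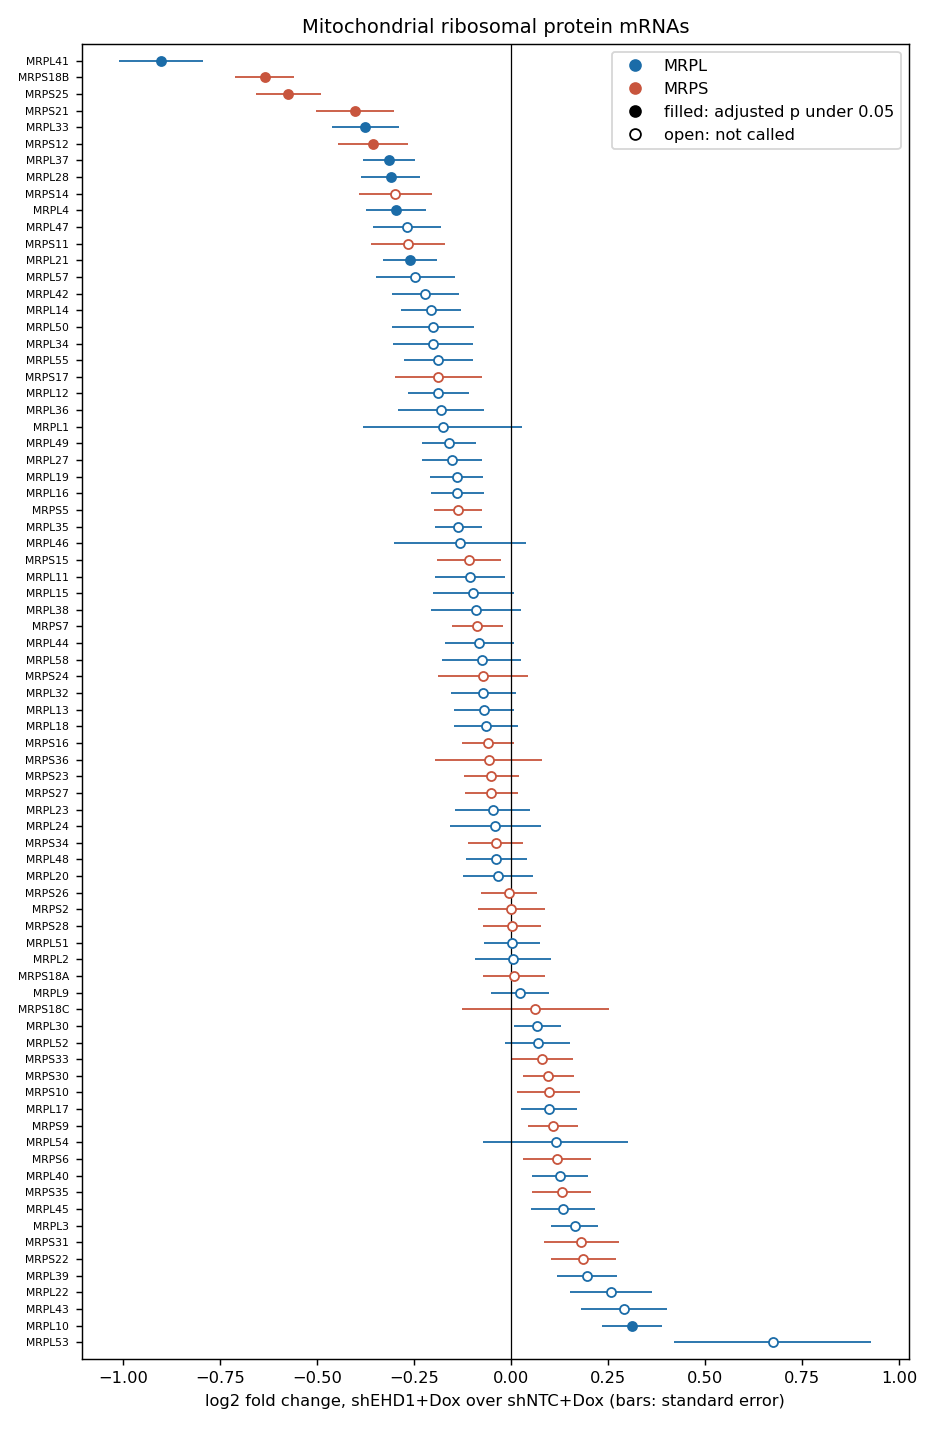
Log2 fold change of each of the 78 members (shEHD1+Dox over shNTC+Dox, x axis) with bars of 1 SE, ordered from the largest fall to the largest rise, MRPL in blue and MRPS in red, filled where the adjusted p was under 0.05. MRPL41, MRPS18B and MRPS25 stand apart at the low end, and 68 of 78 members lie within 0.3 of 0. So do 10084 of the 16785 genes tested and 5883 of the 8061 genes in the members' CPM range.

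MRPL41, a mitochondria-specific protein of the large subunit, showed the largest fall of any member. It lies on chromosome 9 from 137551879 to 137552555 (GRCh38, plus strand) and shares no exon base with another gene. Its level was 22.5, 25.9 and 26.9 CPM in the shNTC+Dox libraries and 13.6, 12.5 and 14.2 CPM in the shEHD1+Dox libraries. The highest knockdown library was thus well below the lowest control library. The mean went from 25.1 ± 2.29 to 13.4 ± 0.86 CPM (SD, n = 3 each), 53.5% of the control level, and the log2 fold change was -0.90 ± 0.11 (SE, adjusted p = 0.0012).

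In the small subunit, 4 of 29 members were called and all were lower. MRPS18B, 1 of 3 human paralogs of bacterial S18, lies on chromosome 6 from 30617840 to 30626395 (plus strand). It measured 90.8, 83.8 and 83.6 CPM in the controls and 57.1, 51.3 and 57.8 CPM in the knockdown. The groups were far apart for this gene, and it fell by 0.64 ± 0.08 (SE) on the log2 scale (adjusted p = 0.0012), to 64.4% of the control level. MRPS25, a mitochondria-specific protein on chromosome 3 from 15009611 to 15065339 (minus strand), measured 58.2, 53.6 and 64.7 CPM in the controls and 38.4, 39.6 and 40.5 CPM in the knockdown, and fell by 0.57 ± 0.08 (SE, adjusted p = 0.0029). Its annotated exons share 8395 of 18309 bases with NR2C2, a nuclear receptor gene that itself fell by 0.45 (adjusted p = 0.004), and the library kit did not keep the strand, so part of its reads cannot be assigned with certainty. The summed CPM of both genes differed by -0.49 on the log2 scale.

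The other small-subunit calls were smaller. MRPS21, a homolog of bacterial S21 on chromosome 1 from 150293861 to 150308979 (plus strand), measured 58.4, 58.5 and 59.5 CPM in the controls and 48.1, 37.4 and 47.9 CPM in the knockdown. Control libraries agreed closely for it, and shEHD1+Dox replicate 2 was the lowest. It fell by 0.40 ± 0.10 (SE, adjusted p = 0.028), and 8 annotated pseudogenes carry its name. MRPS12, which sits at the decoding site, lies on chromosome 19 from 38930944 to 38933168 (plus strand) and measured 45.8, 44.3 and 53.1 CPM in the controls and 36.5, 35.6 and 39.7 CPM in the knockdown. It fell by 0.36 ± 0.09 (SE, adjusted p = 0.029), with all 3 knockdown libraries under the lowest control.

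In the large subunit, 7 of 49 members were called, 6 lower and 1 higher. After MRPL41 came MRPL33, a homolog of bacterial L33 on chromosome 2, with 29.5, 30.6 and 28.6 CPM in the controls and 24.3, 21.2 and 22.9 CPM in the knockdown, a fall of 0.38 ± 0.09 (SE, adjusted p = 0.020). MRPL37, a mitochondria-specific protein on chromosome 1 and 1 of the most abundant members, measured 180, 187 and 173 CPM in the controls and 143, 138 and 152 CPM in the knockdown, a fall of 0.32 ± 0.07 (SE, adjusted p = 0.014). Neither gene's groups overlapped. MRPL28, a homolog of bacterial L28 on chromosome 16, went from 73.0 ± 3.86 to 58.9 ± 3.64 CPM (SD, n = 3 each; log2 fold change -0.31, adjusted p = 0.026). MRPL4, whose bacterial homolog reaches into the peptide exit tunnel, went from 74.9 ± 5.68 to 61.0 ± 2.08 CPM (log2 fold change -0.30, adjusted p = 0.031). MRPL21, a homolog of bacterial L21 on chromosome 11, went from 42.9 ± 1.15 to 35.8 ± 1.15 CPM (log2 fold change -0.26, adjusted p = 0.035). Each of these 3 also had all knockdown libraries below all control libraries. For called members such a gap adds no support, because the calls were made on the same libraries.

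The 1 member that rose was MRPL10, which anchors the stalk to the large subunit and lies on chromosome 17 from 47823272 to 47831541 (minus strand). It measured 68.3, 76.5 and 66.4 CPM in the controls and 86.3, 84.3 and 91.6 CPM in the knockdown. It was higher in every knockdown library, from 70.4 ± 5.35 to 87.4 ± 3.75 CPM (SD, n = 3 each), and its log2 fold change was 0.31 ± 0.08 (SE, adjusted p = 0.026). MRPL12, which binds to MRPL10 in the stalk, measured 128, 131 and 132 CPM in the controls and 115, 103 and 125 CPM in the knockdown. It thus lay on the other side, lower in every knockdown library, but did not pass the test (-0.19 ± 0.08, adjusted p = 0.134). MRPL11, at the base of the stalk, overlapped between the groups (-0.11, adjusted p = 0.456).

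**Figure D3:**
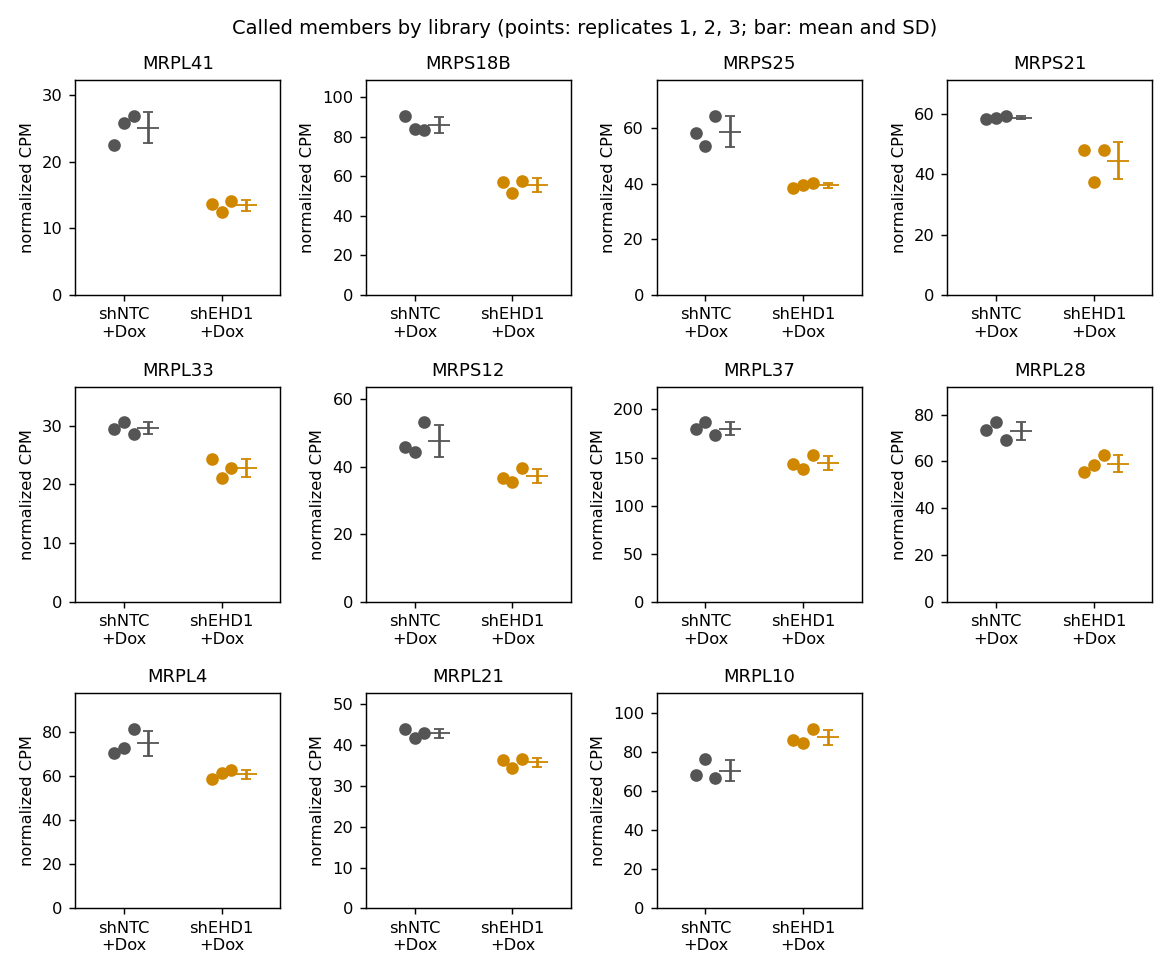
Level of the 11 called members in each library, in normalized CPM (y axes start at 0), with shNTC+Dox in gray and shEHD1+Dox in orange, points for replicates 1, 2 and 3 from left to right and a bar for the mean and SD. In all 11 panels the groups do not overlap, as for 39.3% of all genes tested. This adds no support, because the 11 were chosen by the test on these same libraries. MRPL41 shows the widest relative gap (25.1 to 13.4 CPM) and MRPL10 is the only 1 of the 11 that is higher in shEHD1+Dox.

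Near the threshold, MRPS14 (-0.30 ± 0.09, adjusted p = 0.059) and MRPL47 (-0.27 ± 0.09, adjusted p = 0.069) were just outside, and MRPL21 (adjusted p = 0.035) was the last inside. The members named in this and the following paragraph for their size, their place near the threshold or in the ribosome were chosen after their values were seen. The largest difference of any member above 0 was that of MRPL53, a mitochondria-specific large-subunit gene, with 8.63, 15.1 and 14.8 CPM in the controls and 25.5, 20.9 and 15.1 CPM in the knockdown. The ranges met at 15.1 CPM, the SE was 0.25 on a log2 fold change of 0.67, and it did not pass (adjusted p = 0.110). Almost all of its exon bases, 681 of 685, are shared with the gene ENSG00000286883.

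The members outside the 11 calls did not pass the test, although some differed as much as called ones, among them MRPL43 (0.29 ± 0.11, adjusted p = 0.103) and MRPS11 (-0.27 ± 0.09, adjusted p = 0.086). Around the exit of the peptide tunnel, MRPL23 (-0.05 ± 0.10, adjusted p = 0.774) and MRPL24 (-0.04 ± 0.12, adjusted p = 0.843) differed by less than their SE. MRPL17 (0.10 ± 0.07, adjusted p = 0.391) differed by little more than its SE. MRPL22 went from 25.5 ± 2.73 to 30.4 ± 2.55 CPM (0.26 ± 0.11, adjusted p = 0.127), and MRPL45, which holds the ribosome at the inner membrane, was at 0.13 (adjusted p = 0.303). In the central protuberance, MRPL38 (-0.09), MRPL46 (-0.13) and MRPL48 (-0.04) were below 0 and MRPL40 (0.13) above, and none was called. MRPL58, a peptidyl-tRNA hydrolase that is built into the large subunit and releases peptides from stalled ribosomes, measured 33.5 ± 2.36 and 31.8 ± 3.60 CPM (-0.08, adjusted p = 0.654). MRPS30, a large-subunit protein despite its symbol, was higher in every knockdown library (62.8, 66.8 and 64.3 against 67.8, 69.1 and 70.4 CPM) but by only 0.10 (adjusted p = 0.345). MRPS36, now known as a part of the alpha-ketoglutarate dehydrogenase complex rather than the ribosome, was at -0.06 (adjusted p = 0.807).

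Of the 3 paralogs of bacterial S18, only MRPS18B was called. By contrast, MRPS18A, which sits in the large subunit, measured 34.2, 38.2 and 36.4 CPM in the controls and 34.8, 35.9 and 38.6 CPM in the knockdown (0.01 ± 0.08, adjusted p = 0.960). MRPS18C was the lowest of the 3, with 10.9, 14.5 and 17.5 CPM against 18.1, 13.4 and 13.4 CPM (0.06 ± 0.19, adjusted p = 0.854). Both of these overlapped between the groups, and their signs turned with a library left out (MRPS18A, -0.04 without shEHD1+Dox replicate 3 and -0.03 without shNTC+Dox replicate 1; MRPS18C, -0.10 without shEHD1+Dox replicate 1 or shNTC+Dox replicate 1). The differences between the paralogs' fold changes were not tested. All 3 have annotated pseudogenes, and MRPS18C shares 1956 exon bases with ABRAXAS1.

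The subunits had like medians and like shares of calls. MRPL genes had a median log2 fold change of -0.09 with 34 of 49 below 0, and MRPS genes a median of -0.05 with 17 of 29 below 0. The share called was 14.3% in MRPL and 13.8% in MRPS. The difference of the medians was -0.04, that of the means was 0.005, and the summed counts of both subunits had the same log2 fold change of -0.07. Without shNTC+Dox replicate 2 the difference of the medians was -0.09, and without shEHD1+Dox replicate 1 it was -0.08. Summed over their genes, MRPL mRNAs measured 3115 ± 74.5 CPM in the controls and 2960 ± 92.9 CPM in the knockdown, and MRPS mRNAs 1899 ± 47.4 and 1806 ± 51.5 CPM (SD, n = 3 each). Grouped by place instead of symbol, the 51 genes of the large subunit had a median of -0.08 and the 26 of the small subunit -0.05.

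In each library, the mean log2 CPM of the members taken relative to the mean of the 6 libraries was 0.001, 0.028 and 0.087 for the controls and -0.026, -0.099 and 0.009 for the knockdown. The groups overlapped, with shEHD1+Dox replicate 3 above shNTC+Dox replicate 1. The extremes were shNTC+Dox replicate 3, where 33 of the 78 members had their highest level, and shEHD1+Dox replicate 2, where 34 had their lowest. The mean of MRPL genes minus that of MRPS genes was 0.015, -0.003 and -0.018 for the controls and 0.016, -0.022 and 0.011 for the knockdown. These differences stayed within 0.022 of 0 in every library, so the means of the subunits lay close together in all 6.

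**Figure D4:**
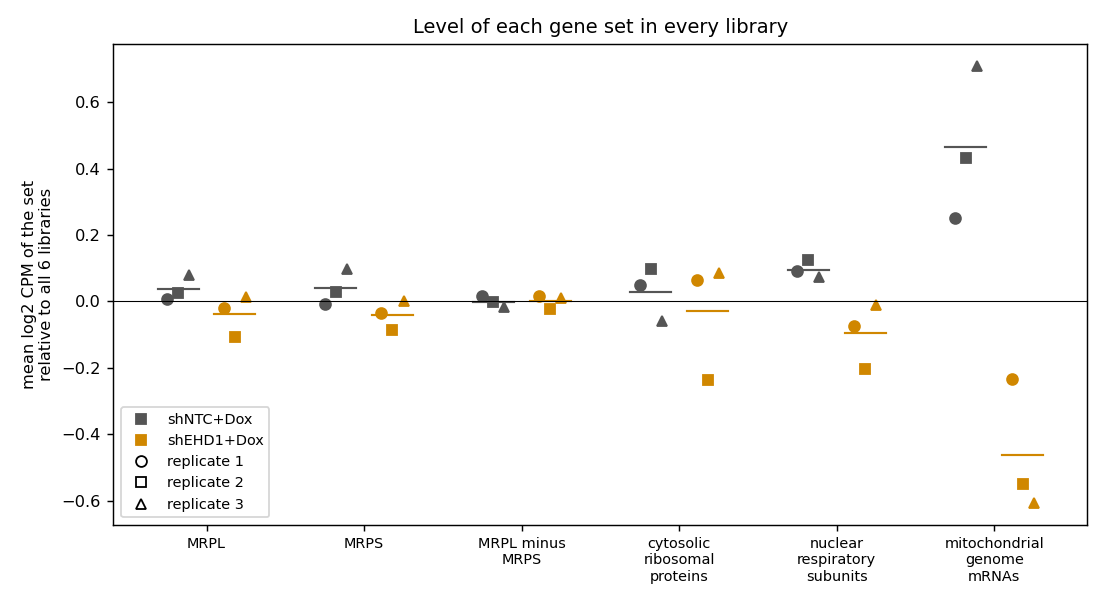
Mean log2 CPM of gene sets in each library, relative to the mean of all 6 libraries (y axis), with shNTC+Dox in gray, shEHD1+Dox in orange, a marker shape per replicate and a line at each group's mean. MRPL and MRPS follow each other and overlap between groups, their difference stays within 0.022 of 0, nuclear-encoded respiratory chain subunits are lower in all 3 knockdown libraries, and mRNAs of the mitochondrial genome are furthest apart.

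Split by origin, the 46 members with a bacterial homolog had a median log2 fold change of -0.10 (33 below 0) and 7 calls (15.2%). The 31 mitochondria-specific members had a median of -0.04 (17 below 0) and 4 calls (12.9%). Both shares were under the 17.3% of all genes and the 23.7% of genes in the members' CPM range. The SD of log2 fold changes was 0.29 in the mitochondria-specific members and 0.16 in those with a bacterial homolog. It was 0.56 over all genes tested and 0.35 over those in the members' CPM range. The mitochondria-specific members held both extremes, the called MRPL41 and the uncalled MRPL53, which widen their SD. The grouping was made after the members' values were seen, and the difference in spread was not tested. MRPS36 was in neither class. MRPS18A and MRPS18B, paralogs of a bacterial protein that sit at sites of their own, were counted as mitochondria-specific.

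Many members overlap other genes, which limits single values. Of the 78, 41 share exon bases with another gene, and 36 have annotated pseudogenes, 79 in all. Leaving the 41 out left 37 members, of which 6 were called (MRPL10, MRPL21, MRPL41, MRPS12, MRPS18B and MRPS21), with a median log2 fold change of -0.06. For MRPL33 the overlap is 324 bases with BABAM2, which measured 0.06 (adjusted p = 0.604), and for MRPL28 it is 223 bases with PGAP6, at 0.12 (adjusted p = 0.313). MRPL37 shares 173 bases with CYB5RL, which itself fell by 0.39 (adjusted p = 0.012). The partner of MRPL4, LIMASI, had at most 6 counts in a library. MRPS22, a mitochondria-specific small-subunit gene at 0.19 (adjusted p = 0.160), shares 7016 exon bases with COPB2, a coat protein gene that rose by 0.37 (adjusted p = 0.008).

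A promoter between divergent genes was common among the members. For 17 of 78 (21.8%) a protein-coding gene started within 1000 bases in the opposite direction, against 11.3% of the 13160 protein-coding genes tested. MRPS11 and MRPL46 face each other across 63 bases, and were at -0.27 (adjusted p = 0.086) and -0.13 (adjusted p = 0.639). MRPS12 starts 181 bases from SARS2, the mitochondrial seryl-tRNA synthetase, which measured -0.01 (adjusted p = 0.916) while MRPS12 fell. MRPL21 starts 28 bases from IGHMBP2, which was at 0.08 (adjusted p = 0.550). MRPL47 and MRPL36 are paired with complex I genes, NDUFB5 (41 bases, -0.26, adjusted p = 0.060) and NDUFS6 (41 bases, -0.25, adjusted p = 0.172), and MRPL49 with the cytosolic ribosomal protein gene FAU (6 bases, -0.19, adjusted p = 0.192). None of these partners was called. The 17 members with such a partner had a median log2 fold change of -0.15, and the others -0.06.

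The promoters of the members are shown because genes of mitochondrial translation are known for sites of the factors GABP (an ETS factor), NRF1 and YY1. RefSeq promoter sequences (GRCh38.p14, 250 bases before to 50 after the start) were given for 69 of the 78 members and searched on both strands for CCGGAAG (ETS), GCGCANGCG (NRF1) and AAGATGGCG (YY1). No matches of different words overlapped. The ETS word was in 30 of 69 promoters (43.5%), against 21.6% of the promoters of genes tested and 12.2% of all promoters. The NRF1 word was in 14 (20.3%, against 16.6% and 9.02%), and the YY1 word in 13 (18.8%, against 4.50% and 2.14%). At least 1 of the words was in 47 members (68.1%, against 37.0% of genes tested). A match in each called member that had any is printed 5′ to 3′ on the strand of the gene, with the word, or its reverse complement, in capitals.
MRPS18B (YY1, chr6:30617853-30617881, plus strand): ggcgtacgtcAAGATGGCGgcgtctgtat
MRPS21 (ETS, chr1:150293840-150293866, plus strand): gtaatttccgCTTCCGGtagtgagaac
MRPL33 (ETS, chr2:27771701-27771727, plus strand): gggccgtgccCCGGAAGcagttgttgt
MRPS12 (ETS, chr19:38930929-38930955, plus strand): cggatagcgcCCGGAAGaggctagaag
MRPL28 (ETS, chr16:370515-370541, minus strand): ggcagatcggCTTCCGGttccggtggg
MRPL37 (NRF1, chr1:54199971-54199999, plus strand): ctcacctactCGCCTGCGCttcacctcac

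MRPS21 held a further ETS match, on chromosome 1 from 150293858 to 150293884. The match in MRPS18B starts 23 bases past the gene's RefSeq start, and those in MRPL33 and MRPS12 start 8 and 5 bases before it. MRPL41, with the largest fall, held none of the words. The 100 bases before its start, with a GC content of 76.0%, are printed to show a promoter of a called member without a match.
MRPL41 (chr9:137551779-137551878, plus strand): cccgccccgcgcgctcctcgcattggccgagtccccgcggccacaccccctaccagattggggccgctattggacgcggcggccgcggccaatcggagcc

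Called members were found with and without the words. Of the 9 called members with a sequence, 4 held the ETS word and 5 did not. The median log2 fold change was -0.02 over the 30 members with the ETS word and -0.14 over those without it, 0.01 and -0.08 for the NRF1 word, and -0.07 and -0.07 for the YY1 word. A match is a description of the sequence only and was not tested as a binding site.

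Other components of mitochondrial translation were read from gene lists written by function, with earlier results of these data known. Among 5 mitoribosome proteins without an MRP symbol, DAP3, the GTP-binding protein of the small subunit, went from 132 ± 3.26 to 106 ± 9.47 CPM (SD, n = 3 each) and fell by 0.31 (adjusted p = 0.029). PTCD3 (-0.11), CHCHD1 (-0.09), GADD45GIP1 (-0.14) and AURKAIP1 (-0.01) were not called. Of the mitoribosome RNAs, MT-RNR1, the rRNA of the small subunit, fell by 0.61 (adjusted p = 0.029), from 1249 ± 74.0 to 820 ± 187 CPM. It had 28757, 15539 and 25189 counts in shEHD1+Dox against 34740, 34749 and 26181 in shNTC+Dox. These raw counts overlap, but in CPM every knockdown library was below every control library. MT-RNR2, the rRNA of the large subunit, was at -0.52 (adjusted p = 0.145), with shNTC+Dox replicate 3 and shEHD1+Dox replicate 2 the lowest of their groups. The tRNA MT-TV was at -0.51 (adjusted p = 0.609). Counts of rRNA and tRNA depend on how the library kit captures them, and their amounts in the cells were not measured.

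Of 29 assembly and rRNA modification factors, METTL15 (0.42, adjusted p = 0.0099) and MRM1 (0.71, adjusted p = 0.0495), both methyltransferases of mitochondrial rRNA, rose, and MTERF4, which takes part in ribosome assembly, fell by 0.30 (adjusted p = 0.034). Their median was -0.11. Of 16 translation factors and related proteins, 3 fell: LRPPRC (by 0.32, adjusted p = 0.014) and SLIRP (by 0.30, adjusted p = 0.045), which form a complex that stabilizes mitochondrial mRNAs, and the ribosome recycling factor MRRF (by 0.30, adjusted p = 0.022). Their median was 0.01. Of 22 mitochondrial aminoacyl-tRNA synthetases and related enzymes, MARS2 fell by 0.54 (adjusted p = 0.0069), NARS2 (0.33, adjusted p = 0.038) and WARS2 (0.34, adjusted p = 0.0498) rose, and the median was 0.04. The shares called in these 3 lists were 10.3%, 18.8% and 13.6%, against 17.3% of all genes.

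All 13 mRNAs that the mitoribosome translates fell, with a median log2 fold change of -0.95 and 4 past 2-fold, and their groups did not overlap for any of the 13. The largest fall was that of MT-ND1, a complex I subunit, from 1180 ± 311 to 487 ± 65.5 CPM (SD, n = 3 each; log2 fold change -1.28, adjusted p = 0.0045). These mRNAs are cut from long shared transcripts, so they are not independent of each other. Of the 76 nuclear-encoded subunits of the respiratory chain and ATP synthase, 20 fell and none rose (26.3% called lower, against 8.75% of all genes), with a median of -0.19. COX7B (by 0.60), NDUFB1 (by 0.47) and COX7A2 (by 0.44) fell the most. Of 85 cytosolic ribosomal protein genes tested, edgeR called 0, with 4 at an unadjusted p under 0.05, and DESeq2 called 3, 2 of them lower. Their median was -0.07, the same as that of the mitochondrial ribosomal proteins.

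Of 14 transcription factors and coactivators of mitochondrial biogenesis, 11 were tested, with a median of -0.21. The calls were 27.3% of the 11, all lower, against 17.3% of all genes called and 8.75% called lower. None was called higher and 3 fell. They were the coactivator PPARGC1B (by 0.68, adjusted p = 0.0038), the nuclear receptor ESRRA (by 0.44, adjusted p = 0.0068) and MYC (by 0.30, adjusted p = 0.013). PPARGC1A, ESRRG and MYCN were too low to be tested.

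**Figure D5:**
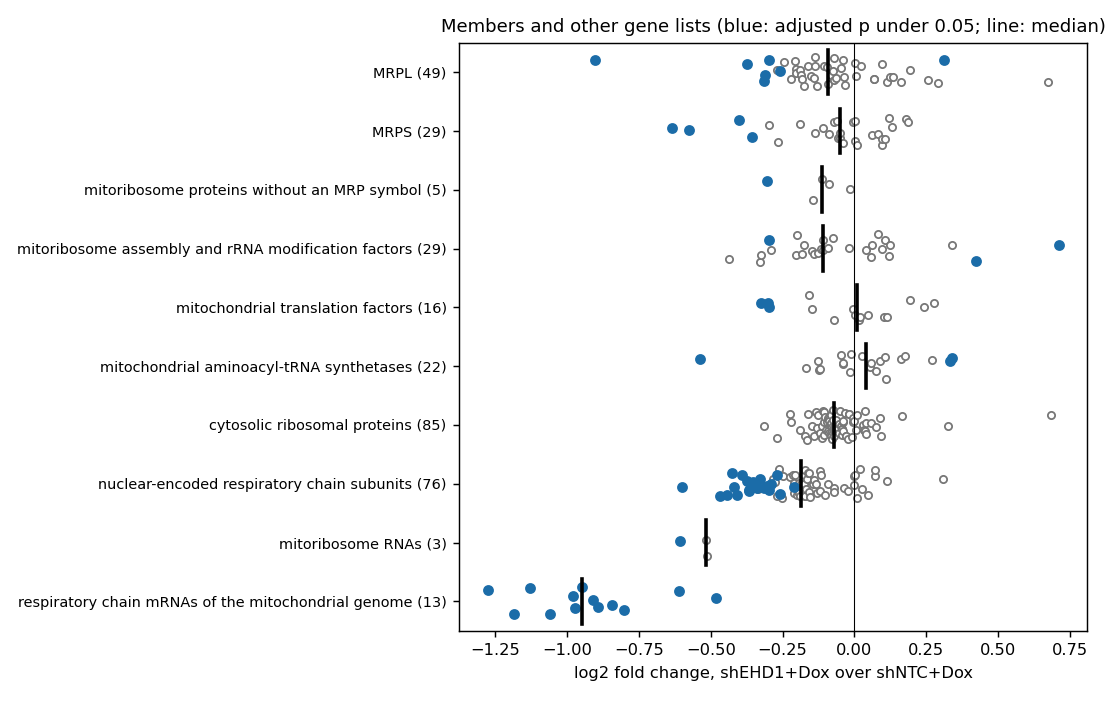
Log2 fold change of every tested gene (x axis, shEHD1+Dox over shNTC+Dox) in MRPL, MRPS and 8 other lists, with the number of genes in parentheses, filled blue points at an adjusted p under 0.05 and a black line at each list's median. MRPL (-0.09) and MRPS (-0.05) lie near the cytosolic ribosomal proteins (-0.07), the nuclear-encoded respiratory chain subunits lie lower (-0.19) and the mRNAs of the mitochondrial genome lowest (-0.95).

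Some markers of proliferation and of other cells differed between the groups. The summed level of 15 proliferation genes was 3640 to 4480 CPM in the controls and 3122 to 3523 CPM in the knockdown, with 7 genes lower, led by PCNA (by 1.05), MCM4 (by 0.84) and MCM3 (by 0.79), and CCNB1, BUB1 and MKI67 higher. Of 6 fibroblast markers, COL3A1 rose by 0.89 and DCN fell by 1.01 on the log2 scale. PDGFRB, COL1A1, COL1A2 and LUM were not called. The summed level of the 6 was 257 to 344 CPM in the controls and 449 to 512 CPM in the knockdown. Most of it was COL3A1, with means of 194 CPM in the controls and 359 CPM in the knockdown. The leukocyte markers summed to 347 to 438 CPM and 504 to 573 CPM, nearly all of it ITGB2. Whether these play a part in the differences of the mitochondrial ribosomal proteins was not tested.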

How the data were processed

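RNA-seq was measured in 6 TC71 libraries, 3 of shNTC+Dox and 3 of shEHD1+Dox, grouped by the shRNA given in the labels. The deposited values were raw counts per gene, which the authors made from paired-end reads of a library kit that does not keep strand. The study's methods name hisat2 with hg38 and Ensembl annotation, StringTie and DESeq2, whereas the submitters' processing notes name STAR 2.7.3a and DESeq2. How the counts were taken from the alignments, and how reads that match pseudogenes or overlapping genes were treated, is not given in the sources used here.

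Library sizes were scaled by TMM, and the quasi-likelihood test of edgeR 4.0.16 (robust glmQLFit and glmQLFTest, R 4.3.3) was run without covariates on the 16785 genes that reached 10 counts in 3 or more libraries. P-values were adjusted by Benjamini-Hochberg and read at 0.05. The study's threshold of 2-fold was used as an alternative. Relative levels per library used log2 CPM with a prior count of 2. The smallest two-sided p that an exact permutation of 3 against 3 libraries allows is 0.1, so no permutation p is given. Gene positions, exons, pseudogenes and canonical transcript lengths came from GENCODE release 44 (GRCh38), where all 78 members were found, and promoters from RefSeq tables.

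The members, gene lists and the grouping of members by place and origin were chosen with earlier results of these data known, and the last after the members' values were seen. Genes were named by a rule: EHD1; up to 6 largest rises and falls among called members of each subunit; the 2 highest and 2 lowest members per kb in each; the S18 paralogs; members with a special place (MRPL10, MRPL12, MRPS12, MRPL58, MRPS30, MRPS36); the mitoribosome proteins without an MRP symbol; and up to 3 called rises and falls in each other list. Other names were chosen after their values were seen.

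Alternative settings were the size factors of DESeq2, no filter on low counts, a filter on every library, DESeq2 1.42.0 with its Wald test, a block for the replicate number, fits without each of the 6 libraries, the 2-fold threshold, other groupings and summaries of the subunits, and, added after seeing the data, a count without members that share exons. The tests were checked on simulated data.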

Additional observations from a re-analysis of the deposited data

How the results depend on the processing

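The number of members called was 11, and it was 11 with DESeq2's size factors or with at least 10 counts in every library, 10 without a filter, and 13 by DESeq2's Wald test, which added MRPL53 and MRPS14. It was 6 without members that share exons (added after seeing the data), 0 with a fold of at least 2, and 4 to 14 with a library left out. With the replicate number as a block it was 5 (MRPL41, MRPS12, MRPS18B, MRPS21 and MRPS25). The deviations of same-numbered libraries had correlations of 0.072, -0.059 and -0.045 across genes, so the numbers were not taken as pairs. MRPL41, MRPS18B and MRPS25 were called at an adjusted p under 0.05 in every one of these fits, although MRPS25 was not counted where members that share exons were left out. No called member changed sign. Signs turned for uncalled genes near 0, whose log2 fold changes with a library left out ran from -0.036 to 0.045 for MRPS18A, -0.101 to 0.228 for MRPS18C, -0.192 to 0.057 for MRPS36, -0.108 to 0.0054 for MRPL13, -0.125 to 0.015 for MRPL58 and -0.043 to 0.021 for AURKAIP1 (0.0024 without a filter). MRPL22 passed without shNTC+Dox replicate 3 (0.35, adjusted p = 0.024).

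The difference between the MRPL and MRPS medians, -0.04, ran from -0.094 to -0.030 with a library left out. It was 0.0048 for means and -0.0012 for summed counts. The median itself ran from -0.13 to -0.04 for MRPL and from -0.07 to -0.004 for MRPS. In the 7 lists of mitochondrial translation, its RNAs, its mRNAs and biogenesis factors, 27 genes were called, 17 with the block and 17 to 28 with a library left out (17 without shEHD1+Dox replicate 1). The fall of EHD1 passed in every fit. The share of all genes called is not given for the fits with a library left out. The causes of the changes between fits were not tested.

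With 3 libraries per group and a median SE of 0.08 for a member, differences under about the size of the called ones could not be resolved, and MRPL53, MRPL1 and MRPS18C were measured less precisely than most.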
